A study of Mus musculus with 5 samples.

Results

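The 6 genes described here, Nr4a2, Per1, Rgs2, Dusp1, Ccn1 and Homer1, are genes that neurons switch on within minutes of activity and that had an HSF1 peak in unstimulated neurons. They were selected on the measured peak positions, because the control peak list has a peak whose summit lies inside the gene or within 10 kb of it. Of the 52 activity-induced genes described below 12 have such a peak, so the 6 are only a part of them. The members are 6 of 21627 protein-coding genes on the autosomes and chromosome X of the GRCm38.p6 annotation. The presence of their control peaks, and for most of them the absence of an NMDA peak, is therefore how they were picked and not a finding, and none of the values below carries a test.

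DNA bound by HSF1 was isolated by chromatin immunoprecipitation (ChIP) and sequenced from wild-type primary cortical neurons taken from Swiss-Webster mouse embryos at embryonic day 16 and studied on day 13 of culture. The NMDA group, with 2 ChIP libraries, received 50 µM NMDA, an agonist of a class of glutamate receptors, for 10 min and then 20 min of drug-free medium. The control group, also with 2 ChIP libraries, received no NMDA, and 1 input library of sheared chromatin came from untreated neurons. Each condition is represented by 1 deposited peak list, with 3646 peaks for NMDA and 3316 for control, so there is no replicate error on any value, and library depth is unknown. A peak's fold is the authors' enrichment of ChIP signal over background at the summit, and q is the authors' false discovery rate for that peak. Each list has its own fold scale. Embryonic neurons in culture are the whole of the model, and peak lists do not show which cell types a culture held. Of the marker genes used to define cell types, 4 of 8 neuronal genes lay within 10 kb of an NMDA peak (95% exact interval 15.7 to 84.3%) and 1 of 8 within 10 kb of a control peak (0.316 to 52.7%). The neuronal genes are long, with a median of 70.9 kb, and of all protein-coding genes over 20 kb 15.4% had an NMDA peak and 16.1% a control peak. Of 6 astrocyte genes, Slc1a2 lay near an NMDA peak and Slc1a3 near a control peak, while none of the 5 microglial or 6 oligodendrocyte lineage genes lay near a peak of either list.

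HSF1 is best known as the activator of chaperone genes, which it binds at inverted repeats of a short unit called heat shock elements. Activity-induced genes depend chiefly on other factors, among them CREB, which binds the cyclic AMP response element, serum response factor, which binds the CArG box, and the Fos and Jun proteins, which bind the AP-1 element. Calcium entry through NMDA receptors is one of the signals that activates CREB. The 6 genes do different jobs in this response. Nr4a2 and Per1 encode transcription regulators, Rgs2 and Dusp1 encode brakes on signalling, Ccn1 encodes a secreted protein of the extracellular matrix, and Homer1 encodes a scaffold of the postsynaptic density.

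The promoter sequences of the genes whose peaks lay nearest a transcription start, and that of Dusp1, are shown because they let the position of each peak be read against the elements just upstream. They are the 250 bases before a start listed by RefSeq on GRCm38.p6, written 5′ to 3′ on the strand of the gene. Capitals mark TGACG on either strand (the core of the cyclic AMP response element, read as CGTCA on the other strand), the full element TGACGTCA, in which TGACG occurs on both strands, and the 2-unit heat shock element GAANNTTC or TTCNNGAA. The windows are chr3:145649986-145650235 (minus strand) for Ccn1, chr11:69098699-69098948 and chr11:69099902-69100151 (plus strand) for Per1, chr13:93303507-93303756 and chr13:93307784-93308033 (plus strand) for Homer1, and chr17:26508473-26508722 (minus strand) for Dusp1.
Ccn1: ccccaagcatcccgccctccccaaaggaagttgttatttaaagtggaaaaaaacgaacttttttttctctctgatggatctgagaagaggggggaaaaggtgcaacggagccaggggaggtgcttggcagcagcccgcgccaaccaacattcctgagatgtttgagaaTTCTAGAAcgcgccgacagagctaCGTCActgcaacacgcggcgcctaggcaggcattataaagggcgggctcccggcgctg
Per1, first start: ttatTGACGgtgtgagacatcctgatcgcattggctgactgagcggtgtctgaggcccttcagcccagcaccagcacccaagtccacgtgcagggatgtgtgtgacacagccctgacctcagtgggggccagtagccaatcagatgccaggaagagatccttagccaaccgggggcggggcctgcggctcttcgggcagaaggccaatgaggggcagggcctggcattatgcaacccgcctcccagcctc
Per1, second start: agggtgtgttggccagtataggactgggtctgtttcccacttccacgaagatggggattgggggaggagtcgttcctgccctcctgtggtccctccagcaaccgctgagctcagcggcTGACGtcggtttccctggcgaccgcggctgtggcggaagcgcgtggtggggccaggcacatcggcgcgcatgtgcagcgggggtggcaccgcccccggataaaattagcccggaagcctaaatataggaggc
Homer1, first start: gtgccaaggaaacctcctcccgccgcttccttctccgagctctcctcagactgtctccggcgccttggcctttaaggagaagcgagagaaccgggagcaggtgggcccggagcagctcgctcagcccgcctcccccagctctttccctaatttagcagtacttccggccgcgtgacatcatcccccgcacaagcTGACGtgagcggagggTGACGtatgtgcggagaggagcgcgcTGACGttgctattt
Homer1, second start: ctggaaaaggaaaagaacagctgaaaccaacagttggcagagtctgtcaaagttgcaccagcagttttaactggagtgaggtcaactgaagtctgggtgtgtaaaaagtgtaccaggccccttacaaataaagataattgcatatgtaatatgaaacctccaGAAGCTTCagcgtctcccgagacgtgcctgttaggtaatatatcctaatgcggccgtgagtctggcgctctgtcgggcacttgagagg
Dusp1: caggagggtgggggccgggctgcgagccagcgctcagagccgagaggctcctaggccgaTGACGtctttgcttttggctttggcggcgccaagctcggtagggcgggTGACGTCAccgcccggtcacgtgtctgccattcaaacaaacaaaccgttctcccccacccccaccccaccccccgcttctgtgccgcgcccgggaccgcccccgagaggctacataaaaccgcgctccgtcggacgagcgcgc

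TGACG was present in the promoter windows of all 6 genes. Of their 8 windows 7 held it, the exception being the second start of Homer1, against 20.4% of 21044 windows of protein-coding genes. It occurred 4 times at Nr4a2, 3 times at Dusp1 and 3 times at the first start of Homer1, where the nearest copy began 14 bp before the start. Among the other 33 activity genes with a listed start 22 (66.7%) had it, so the match is common in this class of gene. Counted by gene, 22.8% of all protein-coding genes with a listed start had it. All the members' windows except those of Ccn1 (54.8% G and C) and the second Homer1 start (46.8%) held 62.0 to 80.0% G and C. TGACG was found in 27.3% of the 7762 windows with at least 60% G and C. The full TGACGTCA was found at Dusp1 alone among the 6 genes, 143 bp before the start, against 1.94% of all windows. Among the other 33 activity genes 4 (12.1%) had it, beside 2.23% of all protein-coding genes with a listed start.

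A 2-unit heat shock element was found in 2 of the 8 windows. At Ccn1 it read TTCTAGAA, 82 bp before the start, and at the second start of Homer1 it read GAAGCTTC, 88 bp before the start. Such a match occurred in 11.9% of all windows, in 15.4% of the 195 windows that an NMDA peak overlapped (95% exact interval 10.6 to 21.2%) and in 8.91% of the 258 that a control peak overlapped (5.74 to 13.1%). The element extended by 1 more unit, to 3, was in none of the members' windows. It was in 0.390% of all windows, in 3.08% of those overlapped by an NMDA peak (1.14 to 6.58%) and in 1.94% of those overlapped by a control peak (0.632 to 4.46%). Neither the AP-1 element TGANTCA (6.17% of all windows) nor the CArG box (1.40%) had a match in the members' windows. Among the windows of the other activity genes the AP-1 element was in 4.17% and the CArG box in 14.6%. No peak of either list overlapped the members' windows, and the sequence under the peaks was not analysed here. A missing match therefore says only that these letters are not in these 250 bases.

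The NMDA list had a peak within 10 kb of 1 of the 6 genes, Homer1, and the control list had exactly 1 peak at each of them. Over all protein-coding genes an NMDA peak lay this near to 9.41%, and a control peak to 10.3%. The other 5 genes had a control peak and no NMDA peak, as did 7.54% of all protein-coding genes, while 6.69% had an NMDA peak and no control peak. To lack an NMDA peak was the usual state of a gene with a control peak, since 73.5% of the 2220 such genes had none within 10 kb. In the other direction 71.1% of the 2035 genes with an NMDA peak had no control peak. The members are short genes, from 2.9 kb (Dusp1) to 17.2 kb (Nr4a2), apart from Homer1 at 101.4 kb. Among the 11653 protein-coding genes of at most 20 kb, an NMDA peak lay near 4.31% and a control peak near 5.29%. In that class 3.49% had an NMDA peak alone and 4.47% a control peak alone. Of those with a control peak 84.6% lacked an NMDA peak, and of those with an NMDA peak 81.1% lacked a control peak.

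**Figure D1:**
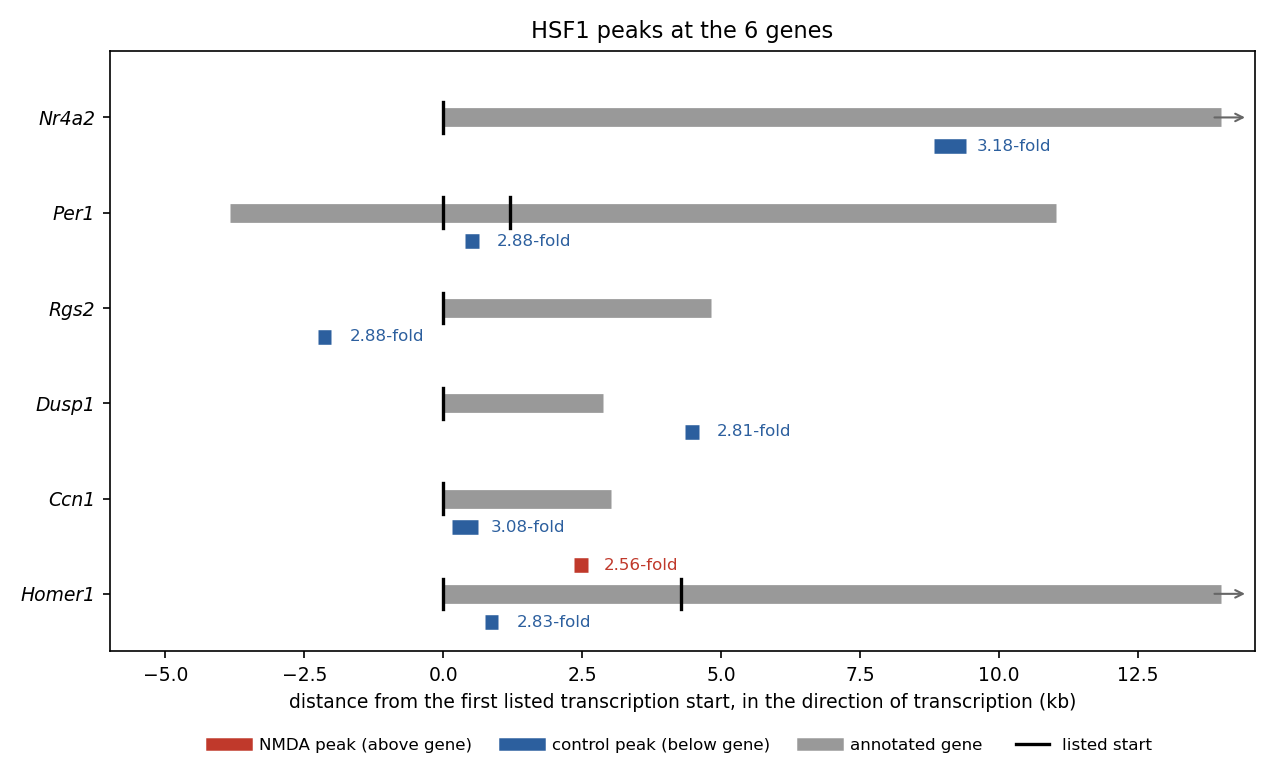
Peaks of the NMDA list (above each gene) and of the control list (below it) drawn to scale against the distance from the first listed transcription start, in kb, with the authors' fold beside each peak. Grey bars are the annotated genes, arrows mark genes that continue past the plot, and black ticks are listed starts. Homer1 is the gene with an NMDA peak, and the 6 control peaks lie on different sides of the starts.

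Of the transcription regulators, Nr4a2 had the highest control fold of the 6 genes. It encodes an orphan nuclear receptor known for its role in dopamine neurons and is induced by activity in the cortex. The gene lies at chr2:57106830-57124003 on the minus strand. The NMDA list had no peak within 100 kb of Nr4a2, and its nearest summit was 747 kb away. The control peak, at chr2:57114600-57115172, had 3.18-fold enrichment (q = 0.00043). At 573 bp it was also their widest peak, against a median width of 316 bp in the control list. Its summit lay inside the gene, 9152 bp downstream of the listed start and 8021 bp before the 3′ end. RefSeq gives 5 transcripts for Nr4a2, of which 1 start is listed, so the distance to other starts of the gene was not measured. The nearer end of a second protein-coding gene, LOC105244150, was 8483 bp from the summit.

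Per1 encodes a repressor of the circadian clock that also responds to CREB. It lies at chr11:69095108-69109965 on the plus strand. The NMDA list had no peak within 10 kb of Per1. The control peak, at chr11:69099341-69099585, had 2.88-fold enrichment (q = 0.0065). Its distance of 4345 bp to the annotated end of the gene hides where it lies, because the annotated gene begins upstream of both starts in the promoter table. The summit was 504 bp downstream of the first listed start and 699 bp upstream of the second, so the peak sat between the 2 promoter sequences shown above and touched neither. The nearer end of the synaptic vesicle gene Vamp2 was 7072 bp from this summit, and it therefore counts as having the same control peak. A site shared by both lists lay farther off, 53.6 kb upstream of Per1 in the NMDA list, with 2.81-fold enrichment there and 2.53-fold in the control list. Aurkb, which encodes a mitotic kinase, is the nearest protein-coding gene to that site.

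The brakes on signalling had control peaks outside the gene body, on opposite sides. Rgs2 encodes a GTPase-activating protein that shortens signalling by Gq-coupled receptors, and it lies at chr1:143999338-144004149 on the minus strand. The NMDA list had no peak within 100 kb of Rgs2, its nearest summit being 550 kb away. The control peak, at chr1:144006170-144006401, had 2.88-fold enrichment (q = 0.0065), and its summit lay 2135 bp upstream of the start. The nearest other gene, the long noncoding RNA gene Gm41964, ends 7613 bp from the summit.

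Dusp1 encodes a phosphatase that switches off MAP kinases and lies at chr17:26505591-26508472 on the minus strand. The NMDA list had no peak within 100 kb of Dusp1, its nearest summit being 382 kb away. The control peak, at chr17:26503872-26504116, had 2.81-fold enrichment (q = 0.0070), the lowest fold among the members. Its summit lay 1592 bp beyond the 3′ end and 4473 bp downstream of the start whose promoter holds the TGACGTCA shown above. The same summit falls inside the long noncoding RNA gene Gm34455, 348 bp from the end of that gene at which its minus-strand transcript is annotated to begin. Whether this control peak belongs to Dusp1 or to Gm34455 cannot be told apart from position. With a window of 1 kb in place of 10 kb, Rgs2 and Dusp1 had no control peak.

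Ccn1, formerly Cyr61, encodes a secreted matricellular protein that is a classic serum response gene. It lies at chr3:145646971-145649985 on the minus strand. The NMDA list had no peak within 10 kb of Ccn1, and its nearest summit lay 45.3 kb outside the gene, with 2.90-fold enrichment. The control peak, at chr3:145649368-145649821, had 3.08-fold enrichment (q = 0.0012) and was 454 bp wide. Its summit lay inside the gene 402 bp downstream of the start, which is the shortest such distance among the 6 genes. The promoter above ends upstream of this peak, so its TTCTAGAA is not under it. Gm17501, a long noncoding RNA gene on the other strand, begins 494 bp from the same summit.

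Homer1 encodes a scaffold that links group I metabotropic glutamate receptors to calcium stores, and its short activity-induced form uncouples them. The gene lies at chr13:93303757-93405129 on the plus strand. It is the only one of the 6 with a peak in both lists, so the description as a control-only gene does not hold for it under the 10 kb rule. The NMDA peak, at chr13:93306105-93306357, had 2.56-fold enrichment (q = 0.0395), and its summit lay 2438 bp downstream of the first listed start. The control peak, at chr13:93304500-93304747, had 2.83-fold enrichment (q = 0.0065), and its summit lay 867 bp downstream of that start. The peaks did not overlap, their summits being 1571 bp apart, and both lay between the first and second listed starts. The NMDA peak was below the median fold of its list (2.69), and 29.4% of NMDA peaks had a fold at or below it. The control peak was above the median of its own list (2.67). With peaks at or above the median fold of their list, Homer1 lost its NMDA peak and all 6 genes had a control peak alone.

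**Figure D2:**
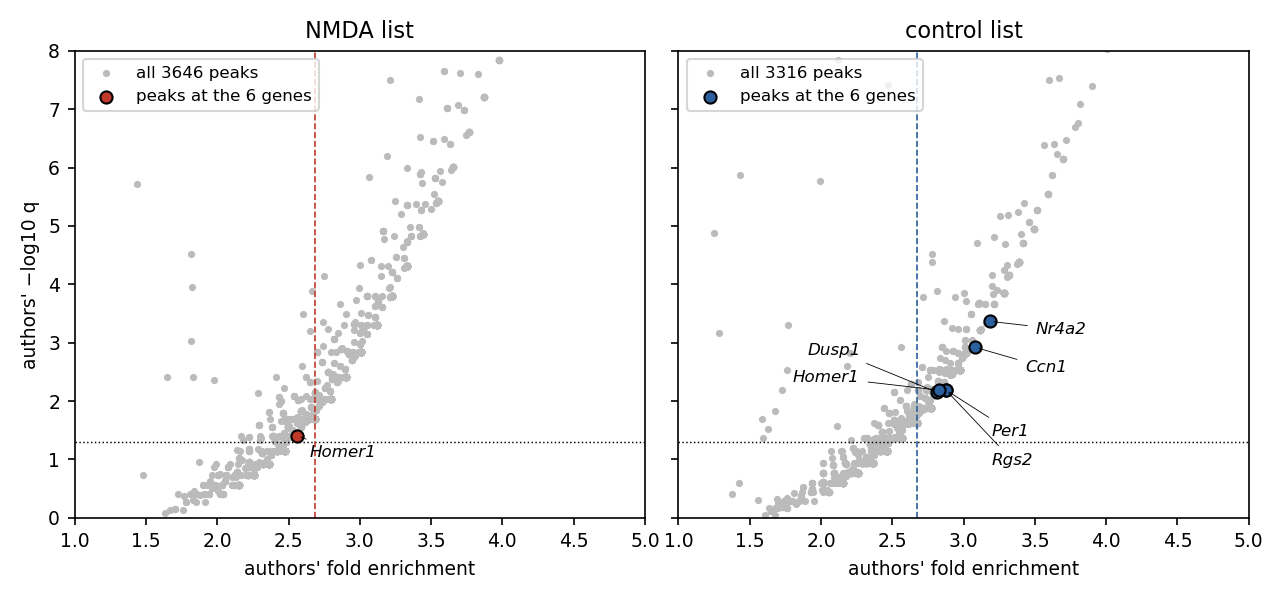
The authors' fold (horizontal axis) against the authors' −log10 q (vertical axis) for peaks of the NMDA list (left) and of the control list (right), with the peaks at the 6 genes in colour. The dashed line is the median fold of each list and the dotted line a q of 0.05. The plot stops at a fold of 5 and a −log10 q of 8, which leaves out 201 NMDA and 29 control peaks. The 6 control peaks lie right of the dashed line and above the dotted line, and the NMDA peak of Homer1 lies just above the dotted line and left of the dashed one.

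The control peaks of the 6 genes all had a fold above the median of their list (2.67). Their folds ran from 2.81 to 3.18 with a median of 2.88, and all 6 had a q below 0.05, as did 76.3% of NMDA peaks and 68.9% of control peaks overall. By fold they stood between place 194 (Nr4a2) and place 1003 (Dusp1) of 3316. Between 69.8 and 94.2% of the control list had a fold at or below theirs. Many control peaks share exactly these values. The fold of Per1 and Rgs2 was that of 188 control peaks, that of Ccn1 of 136 and that of Nr4a2 of 78. Of all control peaks 816 (24.6%) had folds in the members' range. Except at Nr4a2 and Ccn1, the control peaks were narrow, from 232 to 248 bp. The summits lay near the middle of the peaks, at 43.8 to 51.8% of their width.

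The nearest other control summit was 57.9 kb away at Per1 and between 109 and 629 kb away at the other 5 genes. Over all placed control peaks the median of that spacing was 218 kb, and the quartiles were 75.6 and 474 kb. The nearest NMDA summit lay 1.57 kb away at Homer1, 45.7 kb at Ccn1, 58.0 kb at Per1, 382 kb at Dusp1, 550 kb at Rgs2 and 747 kb at Nr4a2. The median of these distances was 220 kb, beside a median of 203 kb over all 3312 placed control peaks. An NMDA summit lay within 10 kb of 8.15% of control peaks, and the 5 genes other than Homer1 are outside that share. None of the 6 control peaks was overlapped by an NMDA peak, beside 2.84% of all placed control peaks that were.

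**Figure D3:**
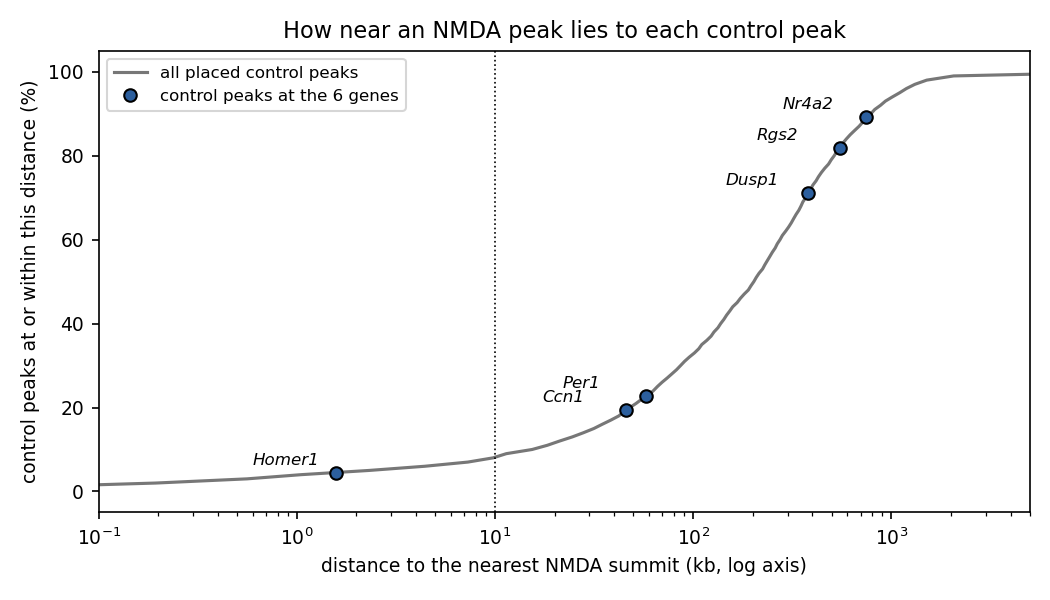
Distance from each control summit to the nearest NMDA summit (horizontal log axis, kb) against the share of all placed control peaks at or within that distance (vertical axis, %), with the control peaks of the 6 genes as blue points and 10 kb as a dotted line. Homer1 is left of 10 kb, and the other genes lie from 45.7 kb (Ccn1) to 747 kb (Nr4a2), on both sides of the list's median of 203 kb.

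Position relative to the listed starts divided the members evenly. The summits of 3 genes lay within 1 kb of a start, those of Ccn1, Per1 and Homer1, and each of these was downstream of its nearest start. Rgs2 had the summit upstream, and Nr4a2 and Dusp1 had it more than 4 kb downstream. Over the 17273 protein-coding genes with a listed start, an NMDA summit lay within 1 kb of a start at 1.99% and a control summit at 2.82%. Of the 39 activity genes with a listed start 2 (5.13%), Egr2 and Plk2, had an NMDA summit and 5 (12.8%) a control summit this near. The 3 members, chosen for their control peaks, are among those 5, so the 12.8% is partly fixed by that choice. Among the 33 other activity genes with a listed start, 2 had an NMDA summit this near, and those with a control summit were Dusp5 and Plk2. Egr1 and Dusp4 have no listed start and are not in this tally. An NMDA summit lay 692 bp outside Egr1, and a control summit lay inside Dusp4. Exon and intron positions are not given in the annotation used here.

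The wider class was described with a list of 52 activity-induced genes that includes the 6. Of these 7 had an NMDA peak within 10 kb (13.5%, 95% exact interval 5.59 to 25.8%) and 12 had a control peak (23.1%, 12.5 to 36.8%). An NMDA peak alone was found at 4 genes, a control peak alone at 9, both at 3 and neither at 36. The members themselves make up 6 of the 12. Among the other 46 genes, 6 had an NMDA peak and 6 a control peak. Counts over the 52 genes changed with the window, and they include the 6 members, chosen for a control peak. With the members left out, the control list did not lead at 1, 5, 10 or 50 kb, but it did at 20 kb. At 20 kb, 7 genes had an NMDA peak, 1 of them a member, and 13 a control peak, 6 of them members. Of all protein-coding genes 11.4% had an NMDA peak and 12.6% a control peak at 20 kb. At 1 kb, 7 genes had an NMDA peak, 1 of them a member, and 8 a control peak, 4 of them members. The NMDA peak alone was found at 4 genes and the control peak alone at 5, of which 3 were members. Of all protein-coding genes 7.37% had an NMDA peak and 7.8% a control peak at 1 kb. At 50 kb, 16 genes were near an NMDA peak, 2 of them members, and 15 near a control peak, 6 of them members. An NMDA peak alone was near 12 genes and a control peak alone near 11, of which 4 were members. Of all protein-coding genes 17.6% had an NMDA peak and 19% a control peak at 50 kb. Shares of all genes near a peak of 1 list alone were not computed at 1 or 50 kb. The class is also short, with a median length of 7.57 kb, so the shares of genes of at most 20 kb given above (4.31% for NMDA and 5.29% for control) stand beside those of all protein-coding genes.

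The activity genes most like the members, with a control peak and no NMDA peak within 10 kb, were Cebpb, Dusp5, Dusp4 and Plk3. Cebpb encodes a leucine zipper transcription factor and had 3.18-fold enrichment in the control list, 3437 bp upstream of its start. Dusp5, a phosphatase gene of the Dusp1 family, had 2.98-fold enrichment 415 bp upstream of its start. Dusp4, of the same family, had 2.41-fold inside the gene (q = 0.071), and the stress kinase gene Plk3 had 2.15-fold 8109 bp outside it (q = 0.092). Both folds were below the control median of 2.67 and neither q was below 0.05. With peaks of q below 0.05 alone, 4 activity genes had an NMDA peak alone and 7 a control peak alone, 5 of the 7 being members. Of all protein-coding genes 7.52% had an NMDA peak and 7.62% a control peak of such a q. The shares of all genes with such a peak in a single list alone were not computed. The peak of Plk3 was the farthest from its gene of those counted. The next control peak, at the antiproliferative gene Btg2, had 2.88-fold enrichment 13.8 kb away and was not counted.

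The highest NMDA folds among the activity genes were at genes with the opposite pattern. Egr1, a zinc finger transcription factor gene, had 2 NMDA peaks. The higher had 8.87-fold enrichment 5729 bp outside the gene, and the other had 3.01-fold enrichment 692 bp outside it. Npas4, an activity-dependent transcription factor gene, had 5 with a highest fold of 5.81. Fosb, which encodes an AP-1 subunit, had 3.01-fold, and Rheb, which encodes a GTPase upstream of mTOR, had 2.80-fold, each with a single NMDA peak inside the gene. None of these 4 genes had a control peak within 10 kb.

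Egr2 and Plk2 had peaks in both lists, like Homer1. Egr2, a relative of Egr1, had 2.69-fold in the NMDA list and 2.88-fold in the control list, at peaks that did not overlap. At Plk2, which encodes a kinase known for homeostatic weakening of synapses, an NMDA peak of 2.80-fold overlapped a control peak of 2.71-fold just upstream of the gene, with summits 413 bp (NMDA) and 462 bp (control) before its start. A second control peak of Plk2, inside the gene with 2.67-fold enrichment, was not overlapped by an NMDA peak. Plk2 was the only activity gene of the 52 with peaks of the 2 lists that overlapped.

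**Figure D4:**
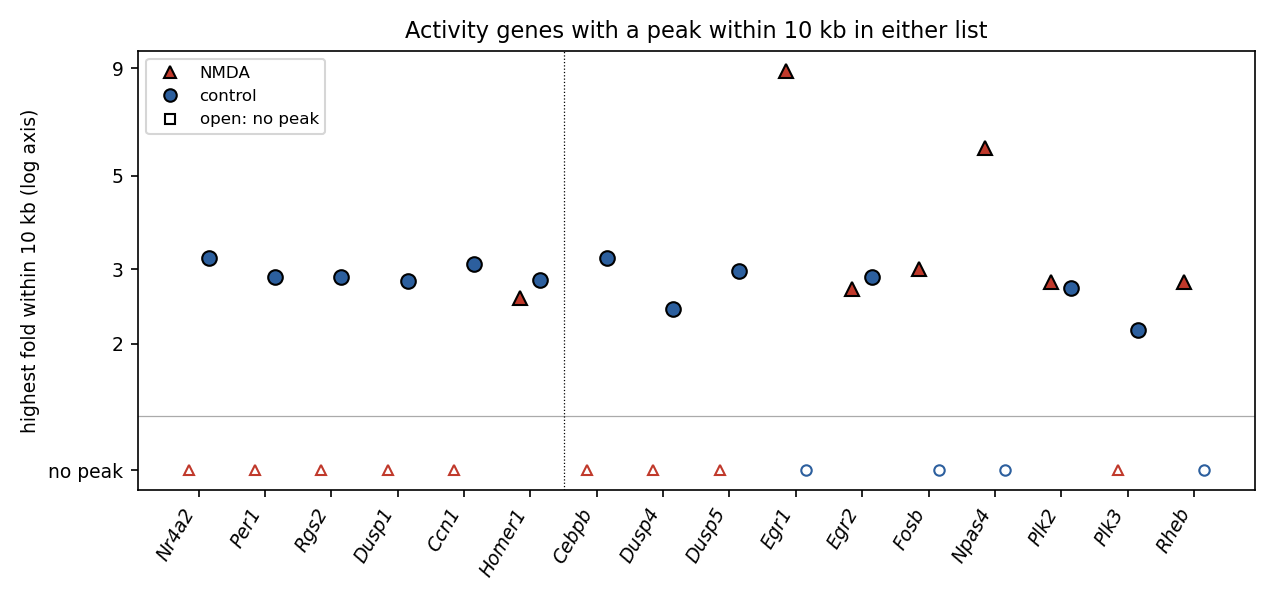
Highest authors' fold within 10 kb (vertical log axis) of NMDA peaks (red triangles) and control peaks (blue circles) for the 16 activity genes with a peak in either list, the 6 genes left of the dotted line. Open symbols below the grey line stand for no peak and have no value. The control values at the 6 genes lie between 2.81 and 3.18, and the highest NMDA values are those of Egr1 (8.87) and Npas4 (5.81), genes with no control peak.

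The families and partners of the members gave small counts. Of the 12 DUSP phosphatase genes 1 had an NMDA peak, Dusp14 (2.63-fold), and 4 had a control peak, Dusp1, Dusp4, Dusp5 and Dusp10. Dusp1 was chosen for its control peak, and without it 1 of 11 had an NMDA peak and 3 of 11 a control peak. Over all protein-coding genes these shares were 9.41% and 10.3%. None of the 5 had peaks in both lists, which is the usual state. Of all protein-coding genes with a control peak 73.5% lacked an NMDA peak, and of those with an NMDA peak 71.1% lacked a control peak. Dusp10, whose product acts on the stress kinases JNK and p38, had 2 control peaks, the higher with 3.29-fold enrichment 645 bp upstream of its start. The exact intervals for the DUSP genes were 0.211 to 38.5% for NMDA and 9.92 to 65.1% for control, so they overlap widely. The control interval includes Dusp1 and is partly fixed by its choice.

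Of the 21 RGS genes 4 had an NMDA peak and 5 a control peak, and without Rgs2, chosen for its control peak, 4 of 20 had each. A control peak alone was found at Rgs2, Rgs3 (2.57-fold) and Rgs5 (2.98-fold), an NMDA peak alone at Rgs7 (2.95-fold) and Rgs22 (2.23-fold), and both at Rgs6 and Rgs21. Rgs21, which lies on chromosome 1 like Rgs2, had 3.31-fold in the NMDA list and 2.38-fold in the control list. That control fold was below the list's median of 2.67, and its q of 0.071 was not below 0.05. These genes are long, with a median of 44.7 kb, and Rgs2 was the shortest of those with a peak. Among the 9974 protein-coding genes over 20 kb, 15.4% had an NMDA peak and 16.1% a control peak, with 10.4% having an NMDA peak alone and 11.1% a control peak alone. Of such genes with a control peak 69.2% lacked an NMDA peak, and of those with an NMDA peak 67.8% lacked a control peak. Of the 19 clock genes found in the annotation, 3 had an NMDA peak alone, Per3 (3.01-fold), Cry2 (2.32-fold) and Arntl (2.69-fold), which encodes BMAL1. The Cry2 peak had a q of 0.118, not below 0.05. A control peak alone was found at Per1, chosen for it, and at Tef (2.88-fold), a leucine zipper factor gene, whose summit was 30 bp upstream of the start. No clock gene had both, but of all protein-coding genes with a control peak 73.5% lacked an NMDA peak. An NMDA peak alone was found at 6.69% of all protein-coding genes and a control peak alone at 7.54%. The clock genes are also long, with a median of 37.7 kb.

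Nr4a1 and Nr4a3, the relatives of Nr4a2, had no peak of either list within 10 kb, and neither had the other 5 CCN genes. Having none is the usual state of a protein-coding gene, since 9.41% had an NMDA peak and 10.3% a control peak. Of the 3 HOMER genes, Homer1 and Homer2 had peaks in both lists and Homer3 had none. Homer2 had 2.90-fold in the NMDA list, inside the gene 2941 bp downstream of its nearest listed start, and 2.67-fold in the control list, 522 bp beyond the gene's other end.

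**Figure D5:**
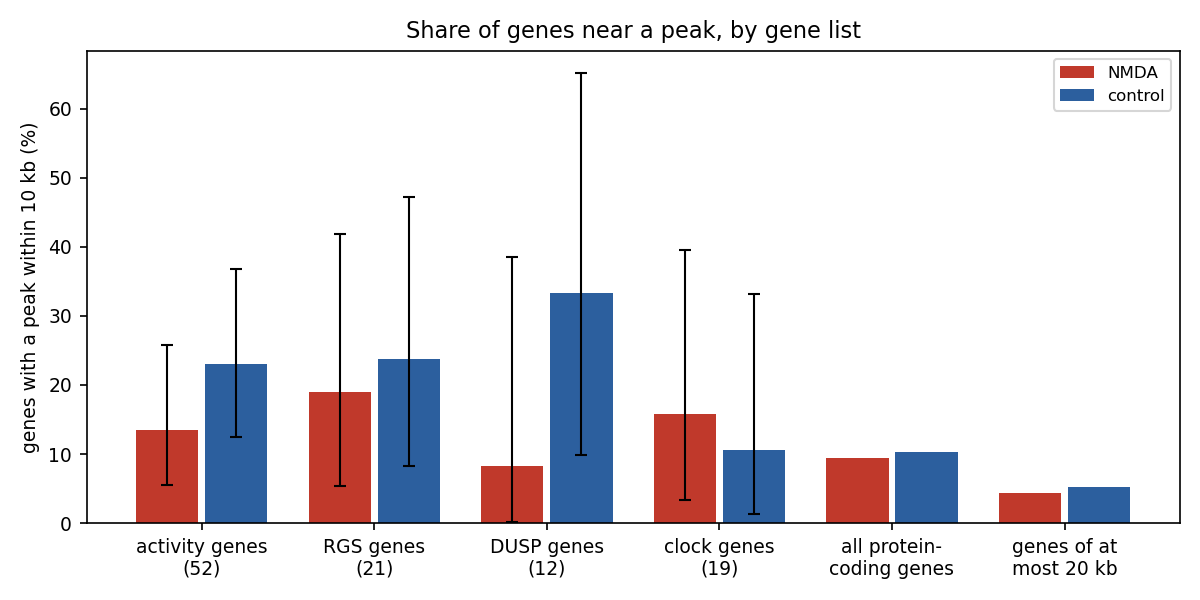
Share of genes (vertical axis, %) with an NMDA peak (red) or a control peak (blue) within 10 kb, for the activity genes and the RGS, DUSP and clock genes, beside all protein-coding genes and those of at most 20 kb. Numbers in brackets are genes in the list, and bars on the lists are 95% exact intervals, which cover counting error only. Each of the 4 lists includes members chosen for a control peak, so its control share and interval are partly fixed by that choice. The activity genes stand at 13.5% for NMDA and 23.1% for control, of which the 6 chosen genes are a part, and the intervals of all 4 lists are wide.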

How the data were processed

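HSF1 ChIP-seq of 2 NMDA and 2 control libraries, with 1 input, was used as 1 peak list per condition. FastQC, Trimmomatic, BWA, SAMtools and MACS2 and the builds mm10 and GRCm38.p6 are named without versions, per the submitters' processing notes. How replicates were combined was not stated in those notes or in the labels. The deposited values per peak are a fold enrichment (a ratio), a peak score, a −log10 q (a −log10 p was not used), and the summit's distance from the peak start. Read depth is unknown. The labels call the libraries of a condition biological replicates, and the lists hold no value per library.

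Peaks were assigned to every gene holding the summit or lying within 10 kb of it, with RefSeq genes of GRCm38.p6 and, for strand and starts, the RefSeq promoter table (all 6 genes matched). As a check of the code on simulated data over 21627 genes, the assignment recovered 200 of 200 peaks placed up to 10 kb outside gene ends. The placement used the same 10 kb rule, so the check does not test the rule itself. No simulated peak was placed inside its own gene. Motifs were searched on both strands in the 250 bases before listed starts. Genome sequence was not used, so the planned search under summits was replaced by this. Shares carry exact Clopper-Pearson 95% intervals for counting error only. Where a list holds members, its control interval is partly fixed by their choice. No test was run, since 1 list per condition gives no replicates. The members and gene lists were chosen with earlier results of these data known. Named genes were the 6 members, other activity genes with a peak, and up to 6 genes per family list. Of 20 clock genes 19 were found. Alternatives were other windows, peak thresholds and assignments. Python 3.11.15, pandas 2.3.3 and scipy 1.17.1 were used.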

Additional observations from a re-analysis of the deposited data

How the results depend on the processing

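Of 75 planned values 54 stayed within the limits set for them (counts within 1.5 times, shares within their 95% interval), and of 6 added ones, chosen after seeing the data, none did. All 6 genes kept a control peak in every setting but the 1 kb window, where 4 did and 3 had no NMDA peak; 5 activity genes then had a control peak alone, and 7 had an NMDA peak and 8 a control peak. With 50 kb, 2 of the 6 genes had an NMDA peak. Of the activity genes, the 6 members included, 16 were then near an NMDA peak (12 near it alone). A control peak was near 15 of them (11 near it alone). Shares of all genes near a peak of 1 list alone were computed only for all peaks at 10 kb. With peaks at or above the median fold, 0 of the 6 had an NMDA peak. The share of protein-coding genes with an NMDA peak and with a control peak was 7.37% and 7.8% at 1 kb, 8.17% and 8.94% at 5 kb, 11.4% and 12.6% at 20 kb, 17.6% and 19% at 50 kb, 7.52% and 7.62% for peaks with q below 0.05, 5.89% and 5.83% for peaks at or above the median fold, 7.89% and 8.38% with the nearest gene alone, 4.31% and 5.29% for genes of at most 20 kb (added), and 15.4% and 16.1% for genes over 20 kb (added). These shares change by construction, as the settings keep more or fewer peaks or genes. Counting any base of the peak changed no count at the 6 genes. With other rules for overlap, 0 member control peaks were shared. The search under summits with a narrower window was not run, since genome sequence was not used. No paired analysis was possible because there is 1 list per condition with no value for a single library, and for the same reason no replicate could be left out. Depth is unknown.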
